A study of Homo sapiens with 18 samples.

Results

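The genes described here are 10 KRAB zinc finger genes of the primate cluster at 19p12: ZNF90 (ENSG00000213988), ZNF85 (ENSG00000105750), ZNF430 (ENSG00000118620), ZNF714 (ENSG00000160352), ZNF431 (ENSG00000196705), ZNF708 (ENSG00000182141), ZNF429 (ENSG00000197013), ZNF100 (ENSG00000197020), ZNF43 (ENSG00000198521) and ZNF91 (ENSG00000167232). The rule that gives them names these Ensembl IDs and uses no measured value, but the list was drawn up with earlier results of these data known. All 10 were listed and tested in each of the 4 deposited comparison tables, which hold 60666 IDs (IP tables) or 34429 IDs (input table). The study carried out RNA immunoprecipitation sequencing in U373-MG, an established human glioblastoma line, to ask how the R-domain of ADAR3 bears on the RNAs it associates with. Cells were retrovirally transduced with FLAG-tagged ADAR3 mutated in the R-domain (R-Mutant), with the FLAG-tagged wild type (ADAR3 WT), or with an empty vector that carries antibiotic resistance (control). All 3 genotypes were grown with G418, crosslinked with UV light at 150 mJ/cm2 and sampled as IP and as input RNA, with 3 libraries in each of the 6 groups. The labels do not say whether the lines were clones or pools, nor which promoter drove the protein, nor whether replicates came from separate cultures, so the errors cover variation among these libraries alone, and this can be technical.

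KRAB zinc finger proteins are a large family of DNA-binding repressors. Tandem C2H2 fingers read the DNA sequence, and the KRAB domain recruits the co-repressor TRIM28, which brings the histone methyltransferase SETDB1 and heterochromatin proteins to the site. Many members bind transposable elements, and ZNF91 is known for repressing SVA retrotransposons in human cells. The genes arose by repeated local duplication, so their transcripts are similar to one another, and how the authors' counting treated reads that fit several of them is not given in the sources used here. ADAR3 belongs to the ADAR family of RNA-binding proteins but is not known to edit RNA itself. Its R-domain, rich in arginine, has been linked to the binding of single-stranded RNA. The values below are about the RNAs of the zinc finger genes, not about their proteins.

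In RefSeq on GRCh38.p14 the 10 genes lay on chromosome 19 between 20078000 and 23395471, a stretch of 3.32 Mb. ZNF90 (20078000 to 20121168) stood first and ZNF91 (23305004 to 23395471) last, 1452938 bases beyond ZNF43. The closest neighbours were ZNF714 (21082203 to 21125094) and ZNF431 (21142040 to 21196053), with 16945 bases between them, and ZNF430 (21020657 to 21060050) lay 22152 bases before ZNF714. The genes with the largest IP values below were ZNF429 (21505602 to 21540668) and ZNF43 (21804946 to 21852065). Genes spanned 27.4 to 90.5 kb, with ZNF91 the longest. The order of the 10 IDs along all 4 tables was the same as their order along the chromosome.

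The shared descent could be read from the promoter windows, taken from RefSeq (GRCh38.p14) as 250 bases before to 50 bases after each annotated start, and all 10 genes had one. For 9 of the 10 that start is the outer end of the gene span given above, and for ZNF43, on the minus strand, it is position 21836182, which lies 15883 bases inside the span, so its window and the stretch printed for it lie within the span. Over the 45 pairs, identity of the aligned overlap ran from 68.7% to 91.0% with a median of 81.0%, and the closest pair was ZNF714 and ZNF431. The CCAAT letters, searched on the gene strand, were present at least once in 10 of 10 members and in 19.6% of all 35116 promoter windows. At least 2 copies stood in 6 of 10 members and in 4% of all windows. On either strand at least 1 copy stood in 34.6% and at least 2 copies in 10.8% of all windows, with the same 10 and 6 members. The longer CCAATCAG, which contains CCAAT, stood on the gene strand in 10 of 10 members and in 2.15% of all windows. All 10 members held 1 or 2 copies, and 6 stretches of 90 bases before the start follow as examples. They run 5′ to 3′ on the gene strand, with CCAAT in capitals, and begin with ZNF429 and ZNF43, the members with the largest IP enrichment.
ZNF429: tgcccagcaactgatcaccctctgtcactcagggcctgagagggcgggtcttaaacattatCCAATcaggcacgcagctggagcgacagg
ZNF43: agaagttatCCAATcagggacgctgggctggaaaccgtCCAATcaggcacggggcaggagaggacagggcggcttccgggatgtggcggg
ZNF714: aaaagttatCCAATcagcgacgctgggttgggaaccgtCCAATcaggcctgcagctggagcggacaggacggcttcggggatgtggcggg
ZNF431: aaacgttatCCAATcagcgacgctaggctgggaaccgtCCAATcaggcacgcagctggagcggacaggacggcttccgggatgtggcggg
ZNF430: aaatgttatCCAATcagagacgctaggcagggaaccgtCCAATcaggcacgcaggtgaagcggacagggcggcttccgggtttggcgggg
ZNF91: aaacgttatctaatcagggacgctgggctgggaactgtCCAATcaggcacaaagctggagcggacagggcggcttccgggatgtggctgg
The stretches are chr19:21505512-21505601 (ZNF429, plus strand), chr19:21836189-21836278 (ZNF43, minus strand), chr19:21082107-21082196 (ZNF714, plus strand), chr19:21141944-21142033 (ZNF431, plus strand), chr19:21020562-21020651 (ZNF430, plus strand) and chr19:23395478-23395567 (ZNF91, minus strand). In each of the 6 members with 2 copies, the starts of the copies were 29 bases apart. ZNF708, ZNF429, ZNF100 and ZNF91 held 1 copy. Both genes with the largest IP values thus differ in this feature, ZNF43 holding 2 copies and ZNF429 holding 1. A match is a description of letters and not a shown binding site.

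**Figure D1:**
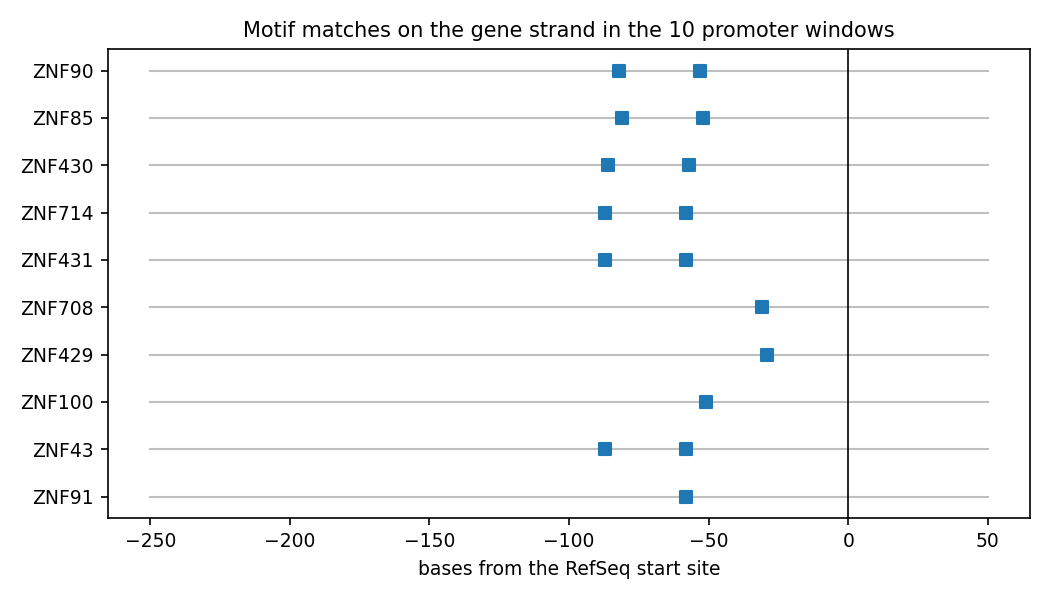
Positions of CCAAT on the gene strand (blue squares, first base of each match) in the promoter windows of the 10 genes; the horizontal axis is the distance in bases from the RefSeq start, marked by the vertical line. In 6 genes the copies stand 29 bases apart, and ZNF708, ZNF429, ZNF100 and ZNF91 hold 1 copy.

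The similarity reached beyond the 10 members. Promoter windows of all other genes were ranked by how many stretches of 12 bases they share with any member, and the 20 highest shared 84 to 153 such stretches, against a median of 0 over 35106 other windows. Of these 20, 19 had a ZNF symbol and 15 lay on chromosome 19, with ZNF486 and ZNF626 first. The stretch TTATCCAATCAG was present in 7 members and in 32 of all windows, 15 of which belonged to ZNF genes outside the 10. These windows are DNA sequence and carry no measurement of the RNA.

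In what follows, IP enrichment compares the IP/input ratio of one genotype with the IP/input ratio of another, on the log2 scale. This reading of the fold changes in the 3 IP tables is an assumption. Their names give the genotypes compared but mention neither IP nor input, and the labels do not state it. Counts were normalized between libraries, so each value is relative to the other RNAs. The authors' deposited tables give a fold change and its standard error (SE) per gene, and the test is a two-sided normal test of their ratio, with Benjamini-Hochberg adjustment over all tested genes and a threshold of 0.05. Values per library that can be tied to the labels were not analysed here, so the spread over the 3 replicates enters through the SE. The tables carry Ensembl IDs without symbols, so the presence of ADAR3 and of glioma markers was not checked.

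ADAR3 WT was accompanied by higher IP enrichment of ZNF429 and ZNF43 than in control. ZNF429 had a log2 fold change of 0.81 ± 0.28 (SE) in the authors' deposited table, which is 1.75-fold with a 95% interval of 1.20 to 2.56 (adjusted p 0.0322, normal test). ZNF43 had 0.70 ± 0.23 in the same deposited table, or 1.62-fold with an interval of 1.18 to 2.22 (adjusted p 0.0235, normal test). These 2 of 10 members passed in the higher direction, where 5.99% of all 21121 tested genes did. None of the 10 passed in the lower direction, where 8.14% of tested genes did. Neither reached 2-fold. With adjustment over all 37121 IDs that have an SE, 1 of the 2 (ZNF43) still passed, and neither did when fold over SE was divided by its robust spread across genes or at an adjusted p under 0.01. That spread was 1.59, above the 1 that the test assumes where no gene differs.

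The other members lay mostly above 0 without passing. ZNF85 stood at 0.66 ± 0.27 in the authors' deposited table (adjusted p 0.0836, normal test), and ZNF714 stood at 0.59 ± 0.27 (adjusted p 0.143, normal test). The intervals of both excluded 0 before adjustment, as those of 4 members did. At an unadjusted p under 0.05, 11.7% of tested genes were higher. ZNF431 followed at 0.45 ± 0.23 in the deposited table (adjusted p 0.206, normal test) and ZNF708 at 0.39 ± 0.25 (adjusted p 0.353, normal test). ZNF100 at 0.22 ± 0.28 and ZNF91, the repressor of SVA elements, at 0.14 ± 0.21 in the deposited table were within 1 SE of 0. ZNF430 at -0.11 ± 0.24 and ZNF90 at -0.82 ± 0.77 in the deposited table lay below 0 with intervals that include it (adjusted p 0.834 and 0.568 by the normal test). ZNF90 had by far the lowest mean normalized count, 27.3 in the deposited table, and its interval ran from 0.197-fold to 1.62-fold.

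As a set, the fold changes lay higher than those of most genes. The members' median was 0.42 on the log2 scale, beside 0.01 over all 21121 tested genes. Fold changes above 0 were found in 8 of 10 members and in 50.7% of tested genes. The share of tested genes that lay below a member ran from 13.8% for ZNF90 to 83.5% for ZNF429. Low-count genes had higher fold changes in this comparison, so each member was also set against the tested genes in its own quintile of mean count, whose medians ran from -0.11 to 0.31. ZNF43 then stood 0.81 and ZNF429 0.77 above the median of its quintile, and 8 of 10 members stood above it. ZNF430, at -0.11, stood at the median of its quintile. This describes the list, which was chosen with earlier results of these data known, and it is no test.

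**Figure D2:**
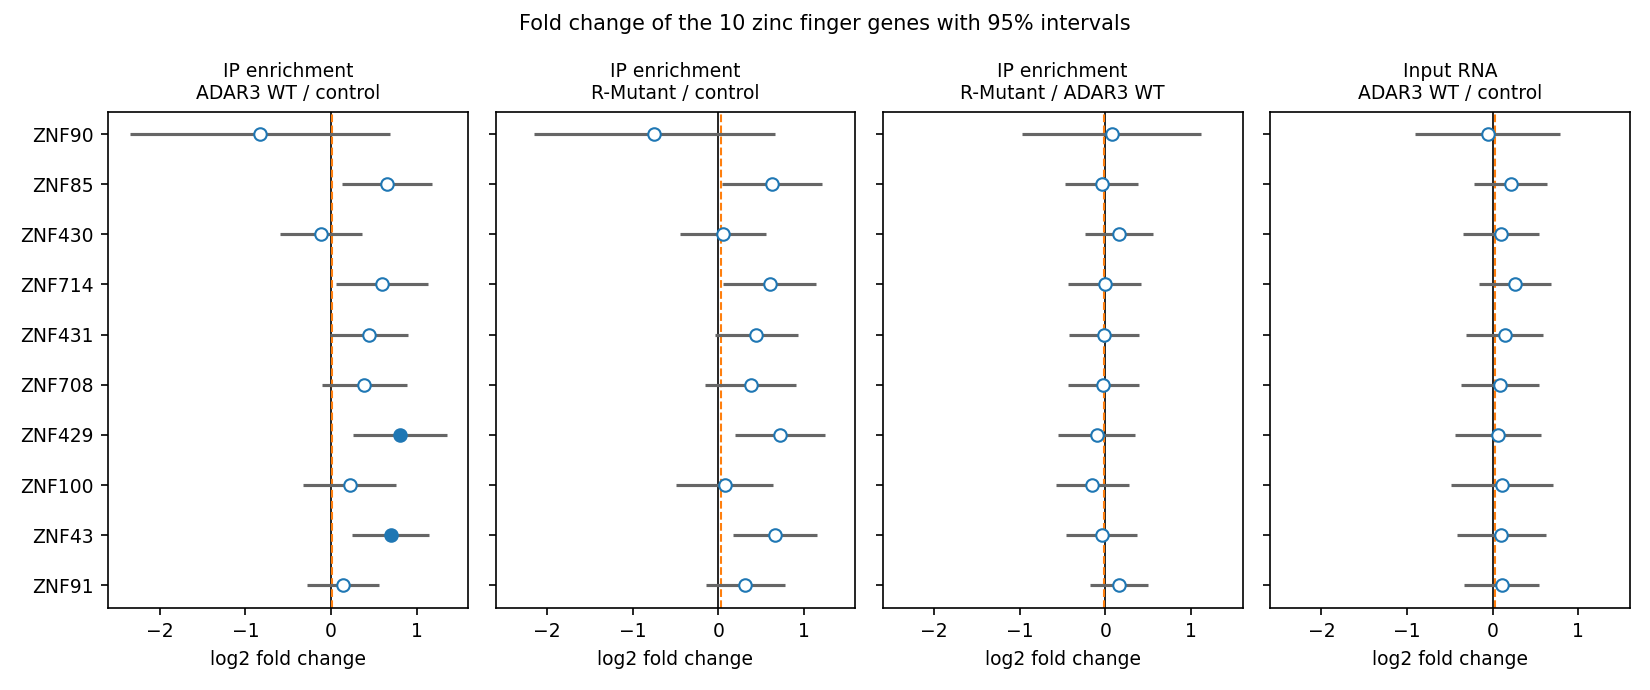
Log2 fold change (points) and 95% interval (bars) of the 10 genes, in chromosomal order, in the 4 comparisons; filled points passed the normal test at an adjusted p under 0.05, and the dashed orange line is the median of all tested genes. ZNF429 and ZNF43 are the filled points, both in the first panel, and in the panels of R-Mutant / ADAR3 WT and of input every interval includes 0.

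From the highest, the order in ADAR3 WT over control was ZNF429, ZNF43, ZNF85, ZNF714, ZNF431, ZNF708, ZNF100, ZNF91, ZNF430 and ZNF90. No neighbours in this order differed by more than 0.876 of their combined SE. Among the 9 members with a mean count of at least 50, the ends of the order, ZNF429 and ZNF430, differed by 0.92 ± 0.37 (combined SE, taking the estimates as independent). Since these were picked as the ends, the difference is given without a test. Of the neighbours on the chromosome, ZNF714 and ZNF431 were also next to each other in this order, at 0.59 and 0.45 in the deposited table, as were ZNF431 and ZNF708, at 0.45 and 0.39. Other neighbours on the chromosome were farther apart, with ZNF430 at -0.11 beside ZNF714, and ZNF100 at 0.22 beside ZNF43 at 0.70 in the deposited table. Across the 10 members, the Spearman correlation of the fold change was 0.26 with position, -0.32 with gene span and -0.19 with mean input count, as a description of 10 genes that share all libraries.

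In the R-Mutant, 0 of 10 members passed against the same control, where 5.38% of 21120 tested genes were higher and 7.95% were lower (normal test). ZNF429 had 0.72 ± 0.27 in the authors' deposited table, or 1.65-fold with an interval of 1.15 to 2.37 (adjusted p 0.0514, normal test). ZNF43 had 0.66 ± 0.25 in the deposited table, or 1.58-fold with an interval of 1.13 to 2.23 (adjusted p 0.0581, normal test). Both lay just outside the threshold, and both passed when adjustment ran over genes with a mean of at least 50 or after centring within quintiles of mean count. With a mean of at least 50, 2975 of 13515 tested genes passed in either direction. After centring within quintiles, 2775 of 21120 did. Passing at these settings was thus not particular to these 2 genes. At an unadjusted p under 0.05, 4 members were higher (ZNF85, ZNF714, ZNF429 and ZNF43), where 11.5% of tested genes were.

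ZNF85 followed at 0.63 ± 0.30, ZNF714 at 0.60 ± 0.28, ZNF431 at 0.45 ± 0.24, ZNF708 at 0.38 ± 0.27 and ZNF91 at 0.32 ± 0.23 in the authors' deposited table of R-Mutant over control. ZNF100 at 0.07 ± 0.29 and ZNF430 at 0.06 ± 0.26 in the deposited table lay near 0, and ZNF90 stood at -0.74 ± 0.72. The members' median was 0.41, beside 0.03 over all tested genes, and 9 of 10 members lay above 0, as 51.7% of tested genes did. Since both comparisons use the control libraries, the likeness of their values is no independent repeat. In the R-Mutant the share of tested genes that lay below a member ran from 16.5% for ZNF90 to 80.3% for ZNF429.

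**Figure D3:**
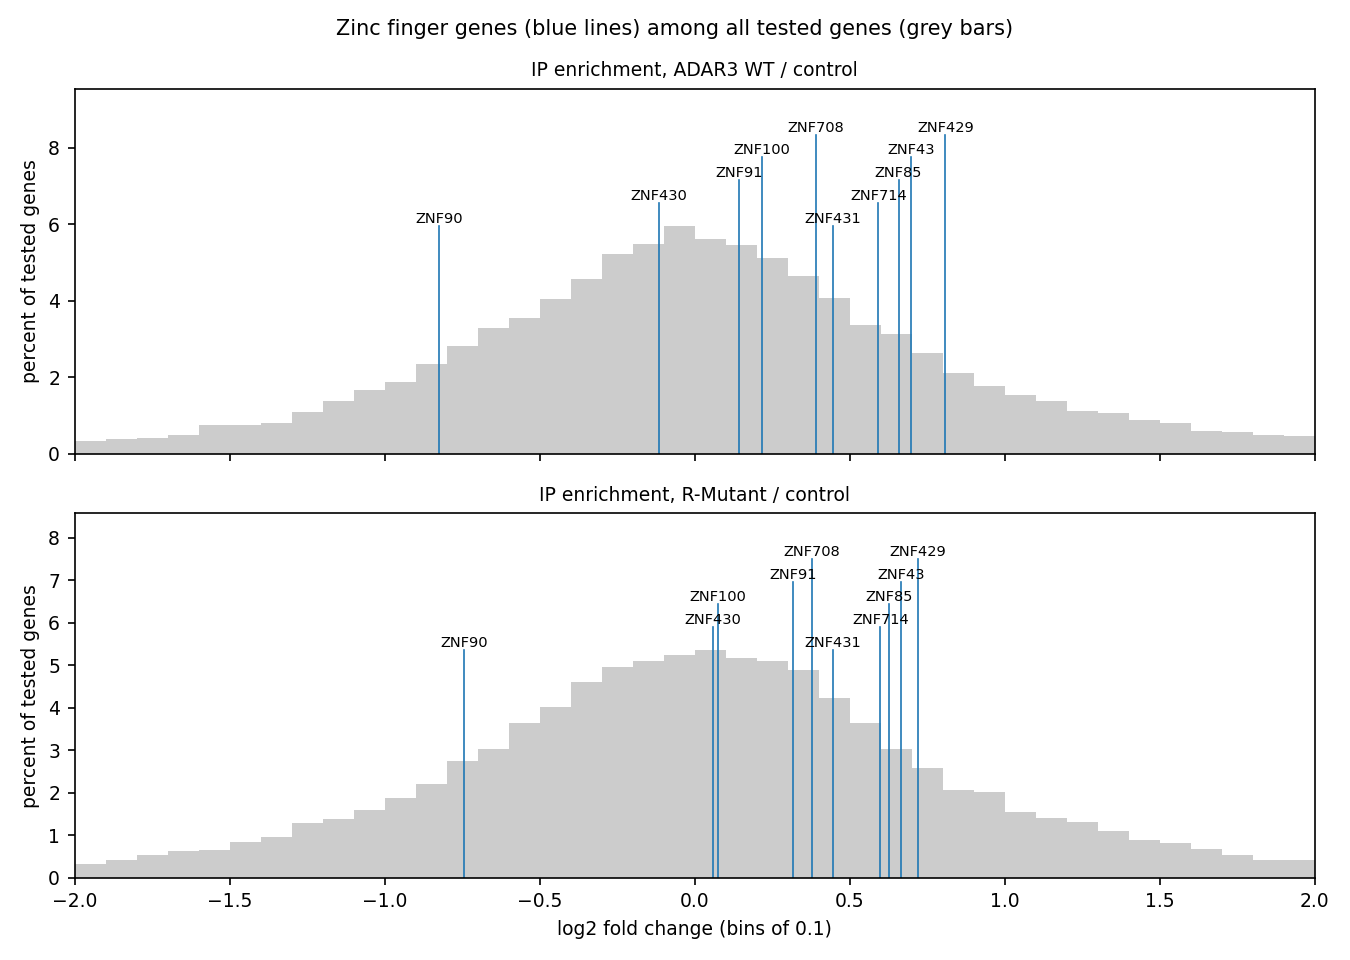
Log2 fold change of the 10 genes (blue lines, labelled) over the distribution of all tested genes (grey bars, percent of genes in bins of 0.1) for IP enrichment of ADAR3 WT over control (top) and R-Mutant over control (bottom); the axis runs from -2 to 2 and leaves out 6.09% and 6.77% of genes. Line heights only separate the labels, and in both panels ZNF429 and ZNF43 lie farthest right and ZNF90 farthest left.

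Set directly against ADAR3 WT, the R-Mutant had no member that passed. Of the 10, 0 passed the normal test in either direction, where 0.00428% of 23385 tested genes (1 gene) did, and 0 had an unadjusted p under 0.05, where 0.239% were higher and 0.385% were lower. ZNF429 had -0.10 ± 0.23 and ZNF43 had -0.05 ± 0.21 in the authors' deposited table, which are 0.933-fold with an interval of 0.683 to 1.27 and 0.969-fold with an interval of 0.724 to 1.30. So the passing of both genes in ADAR3 WT and not in the R-Mutant came with no difference between the 2 proteins that the test could detect. The test was hard to pass here. Fold over SE had a robust spread across genes of 0.605, below the 1 that the test assumes where no gene differs. Divided by that spread, 0 of 10 members and 74 of 23385 genes passed. The largest fold changes were 0.16 ± 0.17 for ZNF91, 0.16 ± 0.20 for ZNF430 and -0.16 ± 0.22 for ZNF100 in the deposited table.

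For 9 of 10 members the 95% interval lay within 2-fold in either direction, as it did for 55.2% of tested genes. The exception was ZNF90, with an interval of 0.511-fold to 2.16-fold. Differences smaller than these intervals remain possible. This table adds little to the other IP tables, because each member's value was within 0.0149 of the R-Mutant value minus the ADAR3 WT value over control. The members' median of -0.02 was equal, to 2 decimals, to that of all tested genes at -0.02.

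Input RNA of the members showed no difference between ADAR3 WT and control that passed. Of 10 members, 0 were called, where 0.103% of 20411 tested genes were higher and 0.186% were lower (normal test), and 0 had an unadjusted p under 0.05. The robust spread of fold over SE was 0.657 in input, also below the 1 that the test assumes where no gene differs. ZNF714 had 0.26 ± 0.21, ZNF85 0.21 ± 0.22 and ZNF431 0.14 ± 0.23 in the authors' deposited input table. ZNF43 had 0.10 ± 0.27 and ZNF429 0.06 ± 0.26 in the deposited input table, so the genes that rose in the IP stood within 1 SE of 0 in input. The other members were between -0.06 for ZNF90 and 0.11 for ZNF100.

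The 95% interval in input lay within 2-fold for 10 of 10 members and for 66.8% of tested genes. The members' median was 0.10 beside 0.03 over all tested genes, and 9 of 10 lay above 0, as 56.6% of tested genes did. Input of the R-Mutant was not compared in the tables used here. In these bulk samples, a change in the number of cells that carry an RNA and a change in RNA per cell cannot be told apart.

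The mean normalized counts give a second view, which is a description. The deposited mean is taken over the libraries of the authors' model, which are not listed, and means of different genes are not set against one another here because transcript lengths were not used. Input means ran from 25.4 for ZNF90 to 2475 for ZNF91 in the authors' deposited input table, and 9 members had a mean above 300 there. The ratio of a gene's mean in an IP table to its mean in the input table was computed. This ratio cannot be read as an IP/input enrichment, because the libraries behind the IP tables' means may include input libraries. The median ratio over 20014 genes stands beside each ratio because the tables were normalized separately. ZNF43 had the highest ratio in the table of R-Mutant over ADAR3 WT at 1.71, beside a median of 0.931, and 94.9% of genes had a lower ratio. In that table ZNF429 followed at 1.33, ZNF85 at 1.32 and ZNF90 at 1.20, while ZNF430 had the lowest at 0.937.

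In the table of R-Mutant over control the ratio was 1.29 for ZNF43 and 1.29 for ZNF90, beside a median of 0.821, and ZNF430 had 0.811. In the table of ADAR3 WT over control it was 1.24 for ZNF43, beside a median of 0.875, and ZNF430 had 0.861. Against control, ZNF43 thus had a ratio above the median and a high fold change, ZNF430 stood near the median in ratio and fold change, and ZNF90 had a high ratio but fold changes below 0. In R-Mutant over ADAR3 WT the order of ratios and of fold changes differed, with fold changes of -0.05 for ZNF43, -0.10 for ZNF429, 0.07 for ZNF90 and 0.16 for ZNF430 in the authors' deposited table. The ratios share libraries with the fold changes, so this is not independent of them.

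**Figure D4:**
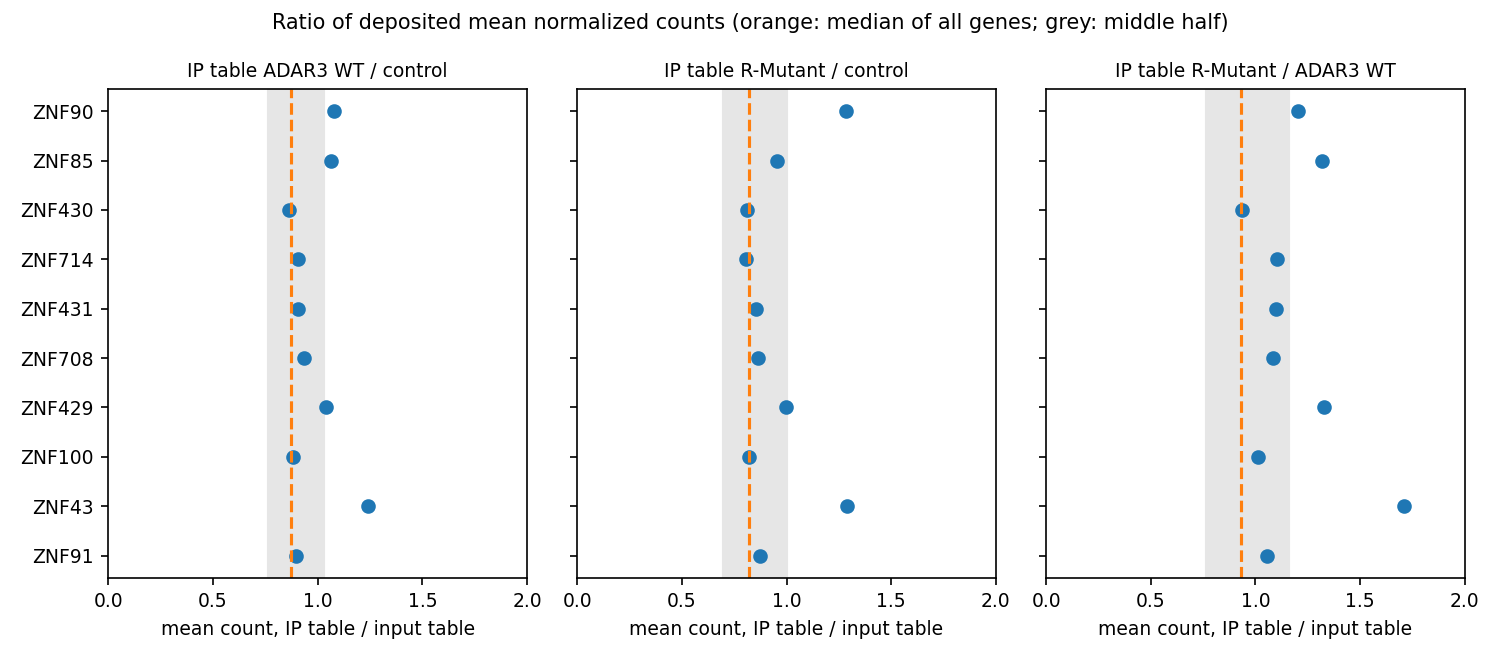
Deposited mean normalized count of each gene in an IP table divided by that in the input table (points), for the 3 IP tables; the dashed orange line is the median of 20014 genes and the grey band holds the middle part of them, from the lower to the upper quartile. ZNF43 and ZNF90 stand right of the band in all 3 panels, and ZNF43 reaches 1.71 in R-Mutant over ADAR3 WT.

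The authors' own statistic in the IP tables is that of a likelihood ratio test whose p-values match a chi-square law at 7 degrees of freedom, so it covers more terms than the printed fold change. The p-values compared were within a relative difference of 0.01 of that law in all 3 IP tables. Within 0.001 they were 100% in both R-Mutant tables and 94.6% in ADAR3 WT over control, where the largest relative difference was 0.00495. By the authors' adjusted p, 6 of 10 members passed in ADAR3 WT over control with a fold change above 0 (ZNF85, ZNF714, ZNF431, ZNF429, ZNF100 and ZNF43), where 19.3% of tested genes did. In R-Mutant over control it was 5 members, where 17.8% of tested genes did, with ZNF714 no longer among them. In R-Mutant over ADAR3 WT, 6 members passed (1 above 0 and 5 below), where 51.1% of tested genes did. ZNF43 had the largest statistic of the members in all 3 tables, with an adjusted p of 6.51e-17, 1.19e-17 and 4.02e-23 in the authors' deposited tables of ADAR3 WT against control, the R-Mutant against control and the R-Mutant against ADAR3 WT. The fold change beside the last was -0.05 ± 0.21 in the deposited table, so that p does not measure a difference between R-Mutant and ADAR3 WT. ZNF430 had the smallest statistic in all 3, with an adjusted p of 0.945, 0.909 and 0.633 in the same order in the authors' deposited tables.

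The IP tables list 147 other IDs between those of ZNF90 and ZNF91, and the input table lists 54. They have no symbol in the sources used here, and they were looked at only because the order of the members in the tables is that of the chromosome. Of the 147, 18 were tested in ADAR3 WT over control, with a median log2 fold change of 0.89, 15 above 0, 2 higher and 0 lower (normal test). Over all 21121 tested genes, 50.7% lay above 0, 5.99% were higher and 8.14% were lower. Most had low counts, with a median mean count of 22.1, and low-count genes had higher fold changes in general. Among the 5 with a mean of at least 50 the median was 0.77 and 4 lay above 0. Over the 13617 tested genes with such a mean, the median was -0.04. In R-Mutant over control 18 were tested, with a median of 0.65, 2 higher and 0 lower. There 5.38% of all tested genes were higher and 7.95% were lower.

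The 2 unnamed IDs called in ADAR3 WT over control were ENSG00000283201, at 1.55 ± 0.42 (adjusted p 0.00367, normal test), and ENSG00000160229, at 0.86 ± 0.30 in the authors' deposited table (adjusted p 0.0331, normal test). In R-Mutant over control they stood at 1.71 ± 0.45 and 0.68 ± 0.31 in the deposited table (adjusted p 0.00254 and 0.133 by the normal test). The other ID called in R-Mutant over control was ENSG00000268521, at 3.79 ± 1.32 in the authors' deposited table (adjusted p 0.0349, normal test), with a mean normalized count of 14.0. It stood at 3.54 ± 1.39 in ADAR3 WT over control in the deposited table (adjusted p 0.0684, normal test). In R-Mutant over ADAR3 WT, none of the 20 tested IDs was called, where 0.00428% of all tested genes were (normal test). In input none of 15 was called, where 0.289% of all tested genes were (normal test). Their fold changes against the unnamed rest and against the members were not tested.

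Among 13275 genes outside the 10 with a mean of at least 50 in all 4 tables, the 5 nearest to the members' median over the 4 log2 fold changes lay at a Euclidean distance of 0.0250 to 0.0282. They carry no symbol in the sources used here and are left unnamed.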

How the data were processed

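RNA from 18 libraries (3 genotypes, IP and input, 3 replicates) was measured by sequencing. Per the submitters' processing notes, the tools were STAR (2.7.7a), DESeq2 and featureCounts, with GRCh38, while annotation, model and DESeq2 version are not stated there. The authors deposited 4 comparison tables. Per the file headers each deposited table holds a mean signal (mean of normalized counts), a log2 fold change, its standard error (also log2), a statistic, which is a score, and p-values. The deposited input table also has 6 columns of per-library values that no label names, and they were left out. Depth per library is unknown.

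The fold change over its standard error was tested with a two-sided normal test and Benjamini-Hochberg adjustment at 0.05 over genes with a deposited adjusted p. Alternatives were an adjusted p of 0.01, the authors' adjusted p, a log2 change of at least 1, a mean of at least 50, adjustment over all IDs, 2 centrings, a rescaled spread and, added after seeing the data, an unadjusted p. All 10 members are named. Lists of other zinc finger genes, of co-repressors and of cell type markers were planned by symbol and not analysed here, because only the 10 members' IDs had a symbol. The IDs between the members in the tables were added in their place. Members and lists were chosen with earlier results of these data known. Promoter windows and coordinates are from RefSeq, GRCh38.p14, and member symbols were matched there for 10 of 10. Tools were Python 3.11.15 with scipy 1.17.1, statsmodels 0.14.6, pandas 2.3.3, numpy 2.4.6 and, for figures, matplotlib 3.10.9.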

Additional observations from a re-analysis of the deposited data

How the results depend on the processing

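No paired analysis was possible because no value of a single library could be tied to a label, and for the same reason no replicate was left out. Of 356 combinations of member, comparison and setting, 320 kept direction and call, 7 lost and 25 gained a call and 4 changed sign. Only the 2 centrings could change a direction, and the settings that only tighten the cut could not add a call. Many of the 320 were thus fixed in advance, and the total is no measure of robustness. In ADAR3 WT over control the 2 called members became 0 at an adjusted p under 0.01, 0 with a log2 change of at least 1 or after rescaling to the robust spread, 1 (ZNF43) with adjustment over all IDs, 6 by the authors' adjusted p and 4 at an unadjusted p. In R-Mutant over control the 0 became 2 with a mean of at least 50 or after centring within quintiles of mean (ZNF429 and ZNF43), 5 by the authors' adjusted p and 4 at an unadjusted p. In R-Mutant over ADAR3 WT it became 6 by the authors' adjusted p, which covers more terms. The sign changes were all in that comparison and near 0: ZNF714 became 0.0107 when centred on the median and 0.0131 within quintiles, and ZNF431 became 0.00415 and 0.0138.

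Over all genes the calls numbered 2986 of 21121 (ADAR3 WT, control), 2814 of 21120 (R-Mutant, control), 1 of 23385 (R-Mutant, ADAR3 WT) and 59 of 20411 (input). The number tested was the same at the settings that follow unless another is given. At an adjusted p under 0.01 they were 1823, 1681 and, for input, 37. The authors' adjusted p gave 9080, 8626 and, between R-Mutant and ADAR3 WT, 11947. With a log2 change of at least 1 they were 1558 and 1632 against control. Rescaling gave 429, 329, 74 and, for input, 450, and an unadjusted p gave 5319, 5243, 146 and 595. Between R-Mutant and ADAR3 WT, 2 genes passed among those with a mean of at least 50. In R-Mutant over control, 2975 of 13515 genes with such a mean passed, and 2775 of 21120 did after centring within quintiles. The cause of the changes under rescaling was not tested. Depth is unknown, and ZNF90, with a mean under 50, has the widest intervals.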
